A study of Mus musculus with 8 samples.

Results

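The cytosolic ribosome is built from rRNA and a fixed set of ribosomal proteins, named Rpl for the large subunit and Rps for the small subunit. Its genes were followed here in osteocyte-enriched fractions of mouse bone. Members were the protein-coding genes whose mouse symbol is Rpl or Rps with a number, Rplp0 to Rplp2 or Rpsa, with the Rps6k kinases left out. The rule took 84 of the 43346 genes in the count table, and 42462 of those genes had a symbol. Of the 84, 77 were standard ribosomal proteins (46 of the large and 31 of the small subunit), 3 were the tissue-restricted paralogs Rpl39l, Rpl3l and Rpl22l1, and 4 were other paralogs (Rps27l, Rpl36al, Rpl7l1 and Rpl10l). A further 5 symbols of that form were annotated as pseudogenes and were left out, as were 251 processed copies. In all, 83 members had enough counts to be tested, and Rpl10l, with 6 counts over 8 libraries, had not.

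Total RNA came from the femur (3 libraries), the frontal bone (3) and the parietal bone (2) of C57BL/6 mice. The animals were 12 weeks old, and the labels give no treatment or genetic change. The frontal and parietal bones belong to the calvaria, the skull vault, and their mean is called calvaria below. Each library carries its bone and the number given in its description: 1, 2 or 4. Whether a library holds bone of a single animal or of several is not in the labels, so the p-values speak only for the spread between these libraries, which may be technical. The series asks how the transcriptome differs between the osteocytes of these bones.

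Ribosomal protein mRNAs are among the most abundant and shortest mRNAs of a cell. Their proteins are needed in near-equal amounts, and many of these mRNAs begin with a pyrimidine run, the terminal oligopyrimidine or TOP motif, through which mTOR signalling and the binding protein Larp1 set their translation. In bone marrow their supply matters for red cell formation, and loss of a copy of some of them causes Diamond-Blackfan anaemia in humans. A few members have paralogs that can take their place in the ribosome in the testis, in muscle or in lymphoid cells.

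Annotated start sites show how well the members share that 5′ end. RefSeq start windows (GRCm38.p6) were found for 64 members. The motif searched was a C followed by at least 4 bases that are each C or T, on the transcribed strand. It began within 1 base of an annotated start in 29.7% of these 64 members and in 7.51% of 27025 genes with a window. Within 10 bases on either side it was found in 60.9% of the members and in 34.4% of all genes. The windows below run from 15 bases before the start to the 15th base from it. Capitals mark the match nearest the start, which can lie inside a longer run of C and T, as in Rps24 and Rpl7a. Rps24 and Rpl22 each had 2 annotated starts, and the one whose match lay nearest is shown. The percentages count a gene if any of its starts matched. The windows show Rps24 and Rpl7a, whose match begins 1 base before the start, and the parents and paralogs compared further on.
Rps24 (chr14:24490663-24490692, plus strand): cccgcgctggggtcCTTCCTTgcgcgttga
Rpl7a (chr2:26910792-26910821, plus strand): attccctcttctttCTTTCTCCagcagccg
Rpl22 (chr4:152324421-152324450, plus strand): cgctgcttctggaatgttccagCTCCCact
Rpl22l1 (chr3:28805493-28805522, plus strand): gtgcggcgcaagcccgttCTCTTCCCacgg
Rpl39 (chrX:37085208-37085237, minus strand): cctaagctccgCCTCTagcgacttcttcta
Rpl39l (chr16:10170213-10170242, plus strand): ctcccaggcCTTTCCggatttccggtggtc
Rpl36a (chrX:134585639-134585668, plus strand): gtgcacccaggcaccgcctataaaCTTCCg
Rpl36al (chr12:69184053-69184082, minus strand): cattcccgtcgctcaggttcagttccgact
Of the first pair, which both have a match at the start, Rps24 was higher in calvaria and Rpl7a was not called, with values given further on. The window of Rpl36al held no match.

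Library totals ran from 6259229 to 13461622 gene counts. The osteocyte fractions differed in what else they held. The 16 osteocyte markers (Dmp1, Sost, Mepe and others) took 2.79 to 5.28% of gene counts in femur and 0.218 to 0.326% in calvaria. The 18 erythroid genes found of 19 listed, led by the globins, took 1.27 to 3.07% in femur and 7.44 to 11.7% in calvaria. The 19 granulocyte genes took 1.84 to 4.82% and 7.0 to 9.30%, the 14 B cell genes 0.0626 to 0.165% and 0.156 to 0.393%, and the 16 proliferation genes 0.109 to 0.173% and 0.400 to 0.527%. No marker on these lists was at 0 counts in any library. In bulk RNA, fewer cells of a type and less RNA per cell cannot be told apart.

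Ribosomal protein genes took a larger share of counts in calvaria than in femur, and a larger share in parietal than in frontal bone. The 84 members together held 1.55, 1.62 and 1.69% of gene counts in femur libraries 1, 2 and 4. The shares were 2.32, 2.34 and 2.30% in the frontal bone of the same numbers, and 3.06 and 3.24% in the parietal bone of numbers 2 and 4. The 3 bones did not overlap. The means were 1.62 ± 0.0697% (SD, n = 3) in femur, 2.32 ± 0.0214% (SD, n = 3) in frontal and 3.15 ± 0.121% (SD, n = 2) in parietal bone, so the share was 1.43 times as high in frontal and 1.94 times as high in parietal bone as in femur. Large subunit genes rose from 0.892 to 1.25 and 1.69%, and small subunit genes from 0.686 to 1.02 and 1.39%. Their counts stood in a ratio of 1.29 to 1.31 in the femur libraries and 1.21 to 1.24 in the calvarial ones, without overlap. Erythroid and proliferation genes moved with the difference between calvaria and femur, and their part in it was not tested. Between the calvarial bones, erythroid genes took 10.1% in frontal and 7.76% in parietal bone, and proliferation genes 0.502% and 0.408%. Granulocyte genes took 3.34% in femur, 7.92% in frontal and 8.86% in parietal bone, the order of the members, and osteocyte markers 0.258% in frontal and 0.322% in parietal bone. The part of these lists was not tested. With erythroid and granulocyte genes left out of the total, the shares were 1.72, 2.83 and 3.78% in femur, frontal and parietal bone.

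**Figure D1:**
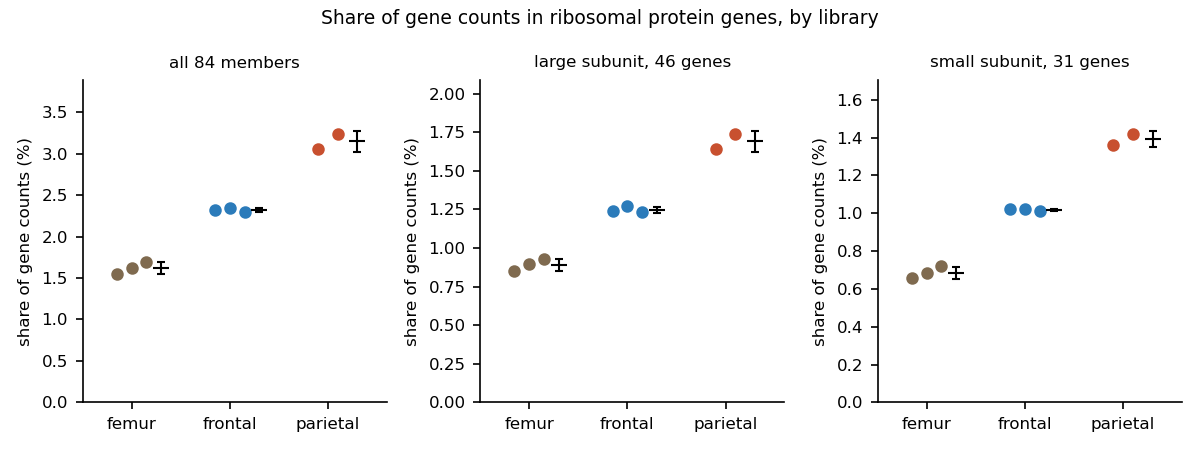
Share of gene counts (%) taken by all 84 members, by 46 standard large subunit genes and by 31 standard small subunit genes. Each point is a library, and the bar beside them is the mean ± SD of the bone (n = 3, 3 and 2); femur libraries lie lowest (1.55 to 1.69% for all members) and parietal libraries highest (3.06 and 3.24%).

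Each gene was then tested with edgeR's quasi-likelihood test on all 8 libraries, with p-values adjusted by Benjamini-Hochberg over 15511 genes and a call at an adjusted p under 0.05. Between calvaria and femur, 74 of the 83 tested members were higher in calvaria and 0 were lower, where 29.6% of all tested genes were higher and 31.4% lower. The median log2 fold change was 0.70 over the members (range -0.25 to 1.48) and 0.01 over all genes. The libraries of 70 members lay wholly above those of femur, as did 26% of all genes. Of the standard large subunit genes 40 of 46 were higher (median 0.63), and of the small subunit genes 30 of 31 (median 0.75). The 9 members that were not called were Rpl10, Rpl18, Rpl24, Rpl39l, Rpl7a, Rpl7l1, Rpl8, Rplp0 and Rps2. The spike-ins took 0.0286 to 0.176% of counts. On their scale 0 members were called higher, in a fit that called 0.226% of all genes higher. The members' median was -0.16 on that scale, where the median gene stood at -0.83.

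Short transcripts as a class were higher in calvaria in these libraries, and members are short. The principal annotated transcript had a median length of 886 bases over the standard members and 2759 bases over all tested genes. Among genes under 1 kb, the 52 members had a median of 0.70 and the other genes a median of 0.72, and 49.8% of those other genes were called higher. Between 1 and 2 kb, the 25 members had a median of 0.64 and the other genes 0.34. Between 2 and 4 kb, the 5 members had 0.70 and the other genes -0.04. When a trend on the length and GC content of the principal transcript was removed from each library, a setting chosen after seeing the data, 26 members were higher and 14 lower in calvaria, with a median of 0.09, where 27.3% of all genes were higher and 29.8% lower. The larger share of ribosomal protein counts in calvaria and a shift of short transcripts between libraries cannot be told apart here. For members of 1 kb or more the length classes are wide, and length within them was not matched.

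**Figure D2:**
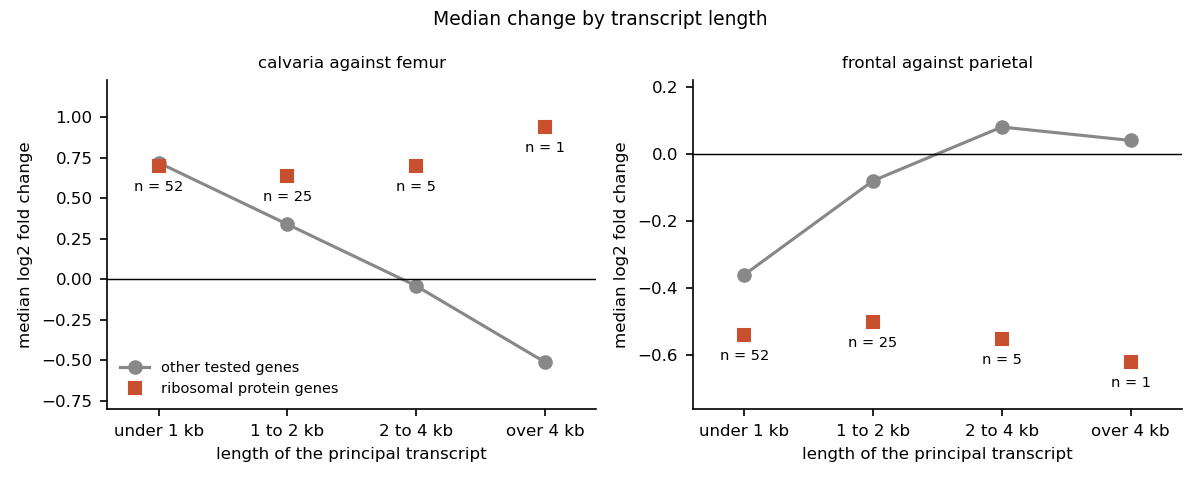
Median log2 fold change (y axis) of ribosomal protein genes (squares, with their number) and of the other tested genes (circles) by length of the principal transcript, for calvaria against femur and for frontal against parietal bone. In calvaria against femur the squares lie on the circle under 1 kb (0.70 and 0.72) and above it from 1 kb on; in frontal against parietal bone they lie below the circles in every class.

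The SD of the log2 fold change was 0.305 over the 77 standard members, paralogs left out, and 1.26 over all tested genes. These sets were not matched for level or length. Rpl36a, a large subunit protein near the exit site for tRNA, had the largest value. It was at 54.3, 59.1 and 61.8 CPM (read counts relative to the TMM-scaled library size) in femur libraries 1, 2 and 4, at 126, 134 and 134 CPM in frontal, and at 201 and 202 CPM in parietal bone. Every calvarial library was above every femur library, and the parietal libraries were highest; the log2 fold change was 1.48 ± 0.11 (SE, adjusted p = 6.30e-07, edgeR). Rpl22, an RNA-binding large subunit protein needed for αβ T cell development in the mouse, was at 52.8, 46.4 and 50.2 CPM in femur, 98.1, 91.1 and 105 CPM in frontal and 143 and 152 CPM in parietal bone. Its bones did not overlap either, with a log2 fold change of 1.27 ± 0.11. Rps24, a small subunit protein mutated in some patients with Diamond-Blackfan anaemia, was at 136, 137 and 148 CPM in femur, 257, 240 and 273 CPM in frontal and 376 and 380 CPM in parietal bone (log2 fold change 1.15 ± 0.11). Rpl35 (1.14 ± 0.11), a protein at the rim of the peptide exit, and Rpl39 (1.12 ± 0.11), a small protein that lines the exit tunnel, followed. With the length trend removed, Rpl36a (0.38), Rpl22 (0.98), Rps24 (0.54) and Rpl35 (0.90) were still called, and Rpl39 was not (0.17, adjusted p = 0.154, edgeR).

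At the other end were members with the same or a lower level in calvaria. Rps2, a small subunit protein at the mRNA entry channel, was at 377, 396 and 405 CPM in femur, 358, 340 and 310 CPM in frontal and 402 and 384 CPM in parietal bone. The frontal libraries lay below the femur libraries and the parietal ones among them, and the value for calvaria was -0.11 ± 0.10 (adjusted p = 0.37, edgeR). Rplp0, the base of the ribosomal stalk that recruits elongation factors, was at 762, 761 and 765 CPM in femur, 705, 689 and 659 CPM in frontal and 835 and 871 CPM in parietal bone. It was lowest in frontal and highest in parietal bone, with a calvarial mean close to that of femur (0.00 ± 0.10). Rpl7a, a large subunit protein, showed the same order, with 153 to 173 CPM in femur, 136 to 147 CPM in frontal and 181 and 187 CPM in parietal bone (-0.03 ± 0.10). Rpl24 stood at -0.24 ± 0.32, on 1.54 to 3.30 CPM in the 8 libraries. That level is far below its neighbours in the ribosome, and since Rpl24 has near-identical copies in the genome, its counts are uncertain. With the length trend removed, Rps2 (-0.37), Rplp0 (-0.43), Rpl7a (-0.70) and Rpl24 (-1.13) were all called lower in calvaria.

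**Figure D3:**
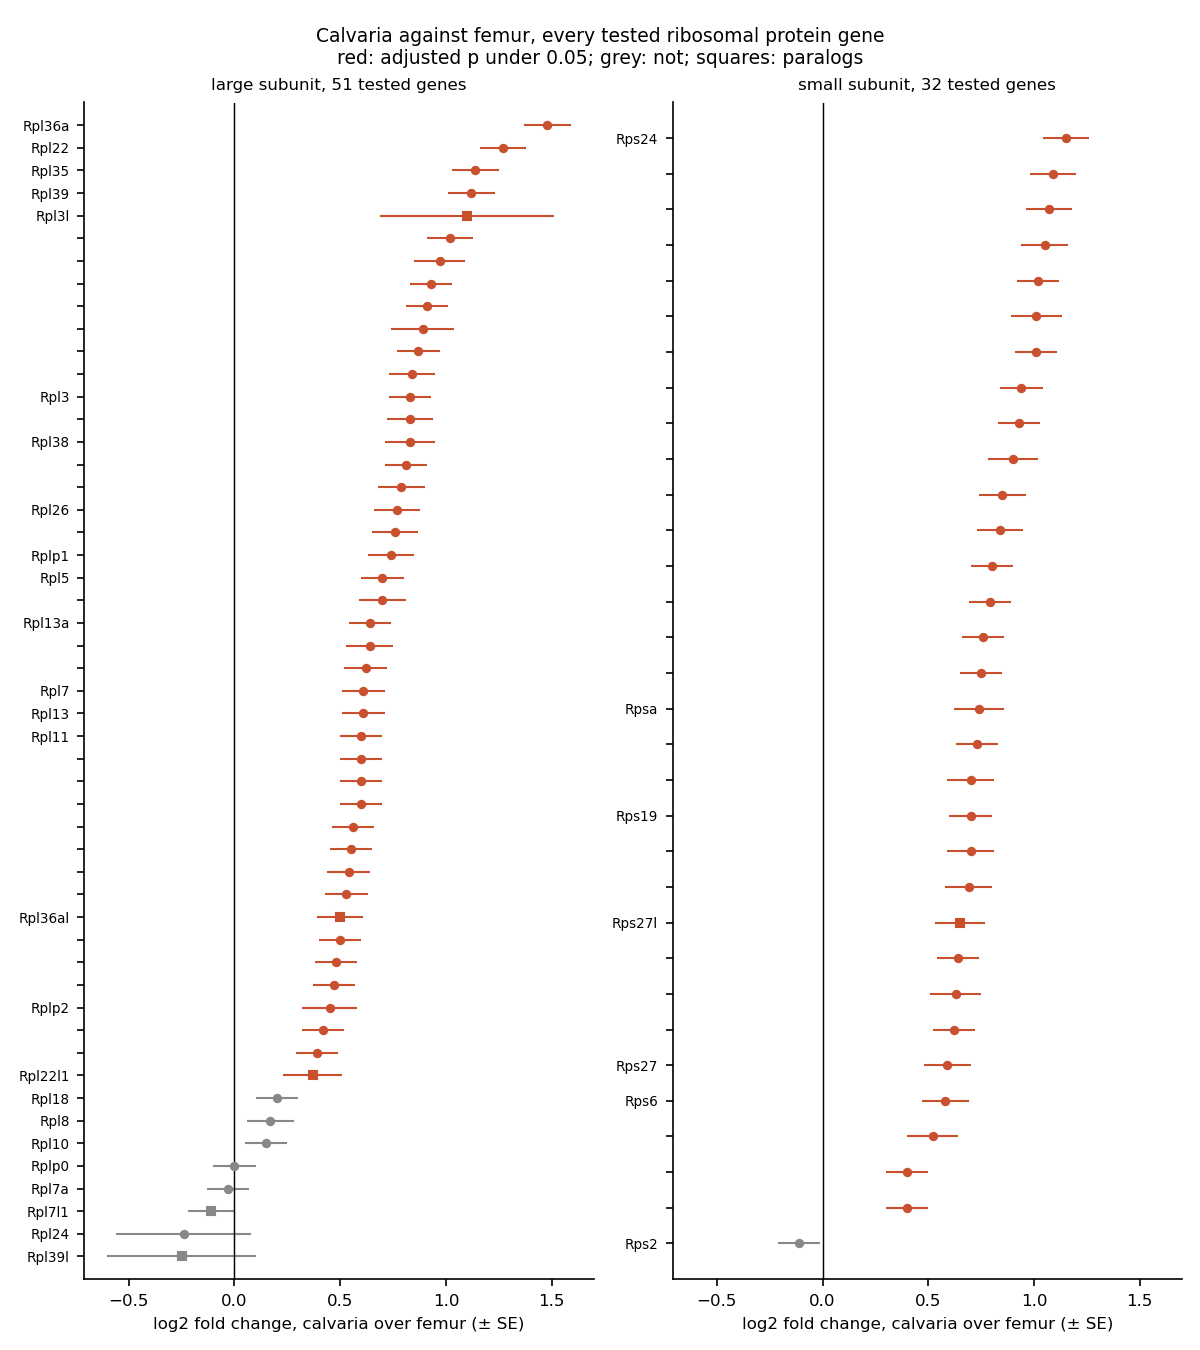
Log2 fold change of calvaria over femur (x axis, ± SE) for the 51 large and 32 small subunit genes that were tested, sorted within each subunit; names are given for paralogs and their parents, for members at either end or with known roles, and for those not called. Red marks an adjusted p under 0.05 by edgeR, grey none, and squares mark paralogs; the values run from -0.25 (Rpl39l) to 1.48 (Rpl36a), and no red symbol lies below 0.

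**Figure D4:**
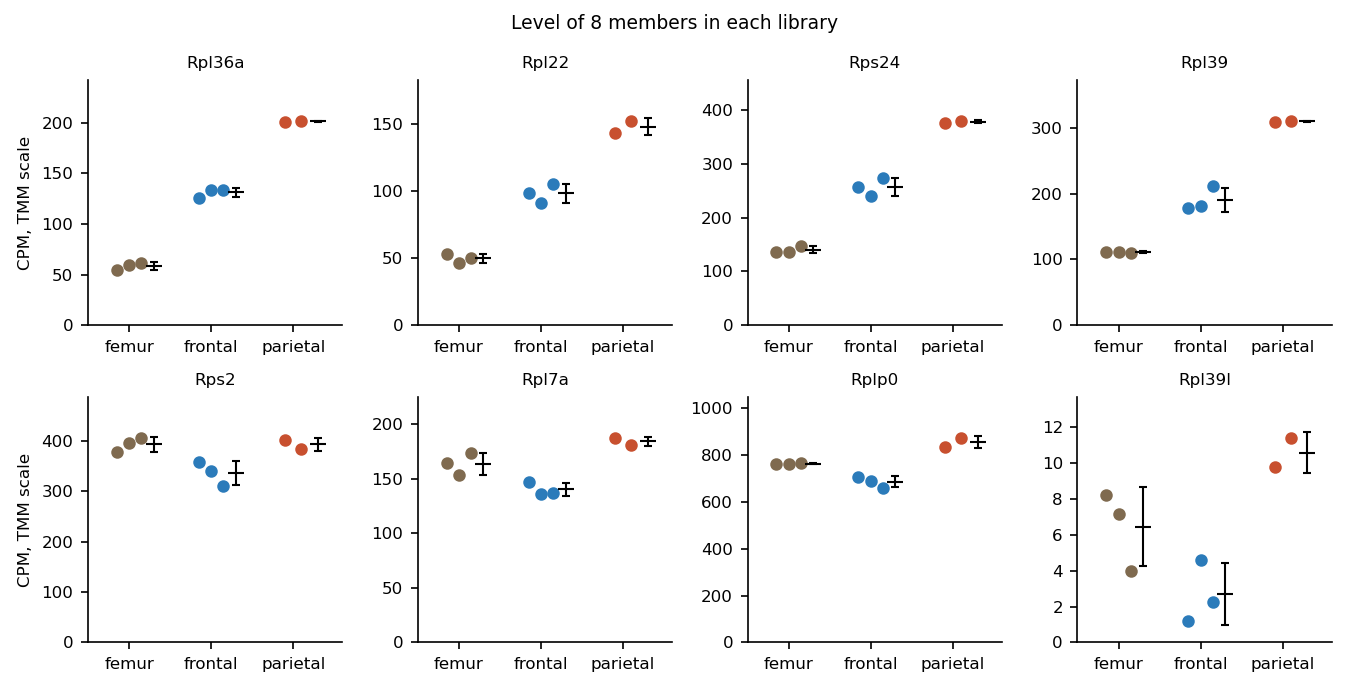
Level in CPM on the TMM scale (y axis, from 0) of 8 members in each library by bone, with the mean ± SD beside the points (n = 3, 3 and 2). Rpl36a, Rpl22, Rps24 and Rpl39 step up from femur to frontal to parietal bone, while Rps2, Rpl7a, Rplp0 and Rpl39l are lowest in frontal bone.

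To compare members with the module itself, libraries were scaled by the summed counts of the 77 standard members and the test was repeated. On this scale 17 members were higher and 11 lower in calvaria, and 55 were not called, where 11% of all genes were higher and 52.2% lower. Those above the module by most were Rpl36a (0.83), Rpl22 (0.62), Rps24 (0.50), Rpl35 (0.49), Rpl39 (0.47) and Rps26 (0.44), which sits at the mRNA exit of the small subunit. Those below it by most were Rpl24 (-0.89), Rpl7l1 (-0.76), Rps2 (-0.76), Rpl7a (-0.67), Rplp0 (-0.65) and Rpl10 (-0.50), which is needed for the joining of the subunits. Of the small subunit 9 were above and 3 below, and of the large subunit standard genes 8 above and 7 below. The TOP motif began within 10 bases of a start in 10 of 12 members above the module with a window, and in 3 of 9 below it. The share over all members with a window was 60.9%. Within 1 base of a start it began in 3 of 12 above and 2 of 9 below, against 29.7% of all members. These counts were made after the values were seen and were not tested.

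Levels per length kept their order across bones. Over the 77 standard members, Spearman's rho of the CPM per kb of exon was 0.969 between the femur and calvarial means and 0.987 between the frontal and parietal means, a description over genes that share libraries. The highest levels per kb of annotated exon were those of Rpl32 (659 CPM per kb), Rps29 (618), Rps3a1 (618) and Rpl36 (505), all standard proteins. Per kb of the principal transcript alone, Rps27 (1310) and Rps29 (1100) led, and the standard members had a median of 309 CPM per kb. Per kb of exon, the lowest among the members were Rpl10l (0.0765), Rpl3l (0.883), Rpl24 (2.09) and Rpl39l (7.32).

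Of 13 members picked for known roles in the skeleton, in blood or in regulation, Rplp0 and Rpl24 were called below the module and the other 11 were not called apart from it. Rpl38, whose loss in Tail-short mice alters the axial skeleton and Hox mRNA translation, was at 126 to 139 CPM in femur, 174 to 217 CPM in frontal and 274 and 291 CPM in parietal bone (0.83 ± 0.12). Rpl13, mutated in a human bone dysplasia, was at 405 to 443, 549 to 556 and 763 to 768 CPM (0.61 ± 0.10). Rps19, the gene most often mutated in Diamond-Blackfan anaemia, was at 355 to 384, 482 to 503 and 709 to 727 CPM (0.70 ± 0.10). For all 3 genes the bones did not overlap, and all 3 remained called with the length trend removed (0.59, 0.32 and 0.43).

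Rpl5 (0.70 ± 0.10) and Rpl11 (0.60 ± 0.10), which bind Mdm2 when ribosome assembly fails, were higher in calvaria. So were Rps6 (0.58 ± 0.11), the substrate of S6 kinase, Rpl13a (0.64 ± 0.10) and Rpl26 (0.77 ± 0.11), which also control translation of single mRNAs outside the ribosome. With the length trend removed none of these 5 was called, and Rpl11 (-0.08) and Rps6 (-0.23) lay below 0. The acidic stalk proteins Rplp1 (0.74 ± 0.11) and Rplp2 (0.45 ± 0.13) were called, the second on a wide range of 132 to 179 CPM in femur and not without femur library 1 (0.32) or without parietal library 4 (0.41). Rpsa, also known as the laminin receptor, was at 236 to 295 CPM in femur and 327 to 528 CPM in calvaria (0.74 ± 0.12).

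The 2 calvarial bones were then compared with femur separately in the same fit. In frontal bone 62 of 83 members were higher than in femur and 1, Rpl39l, was lower, with a median of 0.43, where 27.2% of all genes were higher and 28.5% lower. In parietal bone 75 were higher and 0 lower, with a median of 0.95, where 27.1% were higher and 28.6% lower. These comparisons share the femur libraries. With the length trend removed, 8 members were higher and 26 lower in frontal bone (median -0.12), where 26.0% of all genes were higher and 28.2% lower. In parietal bone 38 were higher and 5 lower (median 0.28), where 23.2% and 25.4% of all genes were.

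Frontal and parietal bone were compared directly. Of 83 members 0 were higher and 59 lower in frontal bone, with a median of -0.54, where 3.91% of all genes were higher and 3.29% lower and the median gene stood at -0.02. The frontal libraries of 78 members lay wholly below the parietal ones, as did those of 25.6% of all genes. Large and small subunit genes had the same median of -0.54. Genes under 1 kb other than members had a median of -0.36, and 25 members of 1 to 2 kb stood at -0.50 where the other genes of that length stood at -0.08. The number of calls rests on single libraries: it was 0 without femur library 2, without frontal library 1 or without either parietal library, in fits that called 0% of all genes in either direction. It was 19 without frontal library 4, where 0.795% of all genes were lower. With the length trend removed the number was also 0, with a median of -0.38, in a fit that called 0% of all genes. With the library number as a block it was 0 too, with a median of -0.53, and again 0% of all genes were called. With a parietal library left out, the remaining one is assumed to vary like the other bones. The median stayed between -0.47 and -0.54 in all 8 fits without a library.

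The members with the smallest p between these bones had almost the same difference. Rps7, a small subunit protein that also binds Mdm2, was at 275, 293 and 280 CPM in frontal and 470 and 485 CPM in parietal bone, with 191, 194 and 193 CPM in femur. The frontal libraries lay between femur and parietal bone without overlap, and the log2 fold change of frontal against parietal bone was -0.76 ± 0.12 (adjusted p = 0.0272, edgeR). Rps14, the gene behind the anaemia of the human 5q- syndrome, was at 518, 516 and 510 CPM in frontal and 850 and 843 CPM in parietal bone (-0.72 ± 0.12). In femur it was at 528, 489 and 487 CPM, so frontal bone and femur overlapped. The others were Rpl34 (-0.74), Rps27a (-0.69), whose protein is made as a fusion with ubiquitin, and Rpl31 (-0.67). The calls of these 5 members were lost in each fit that left out femur library 2, frontal library 1 or one of the parietal libraries (2 and 4), at values between -0.78 and -0.59. Relative to the summed module 2 members, Rpl28 (0.40) and Rpl8 (0.38), were higher in frontal bone and Rpl39l (-1.41) lower, where 34.8% of all genes were higher and 0.322% lower.

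The tissue-restricted paralogs did not move together. Rpl39l, a paralog of Rpl39 known from male germ cells, was at 8.25, 7.18 and 3.97 CPM in femur, 1.20, 4.59 and 2.25 CPM in frontal and 9.78 and 11.4 CPM in parietal bone. It was highest in parietal bone, and femur and frontal bone overlapped. It was lower in frontal bone than in parietal bone (-1.94 ± 0.44, adjusted p = 0.0324, edgeR) and than in femur (-1.22 ± 0.42, adjusted p = 0.0276, edgeR). The first call was lost in 5 and the second in 4 of the 8 fits without a library (-2.63 to -1.59 and -1.91 to -0.87). Rpl22l1, the paralog of Rpl22 found in lymphoid and embryonic tissue, was at 45.4, 38.5 and 34.3 CPM in femur, 38.1, 36.3 and 45.4 CPM in frontal and 60.5 and 69.2 CPM in parietal bone. Femur and frontal bone overlapped (0.02 ± 0.15), and parietal bone lay above both, by 0.72 ± 0.17 over femur (0.58 and not called without parietal library 4). Frontal against parietal bone stood at -0.70 ± 0.17, a call lost in 4 of 8 fits without a library. For calvaria against femur it was called at 0.37 ± 0.14, and that call was lost in 5 of 8 fits without a library.

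Rpl3l, the paralog of Rpl3 of heart and skeletal muscle, was close to the limit of detection. It had 3, 7 and 11 counts in femur, 13, 20 and 16 in frontal and 22 and 18 in parietal bone, or 0.516 to 1.28 CPM in femur and 1.55 to 2.25 CPM in calvaria. All calvarial libraries were above all femur libraries (1.10 ± 0.41, adjusted p = 0.035, edgeR), but the call was lost in 6 of 8 fits without a library (0.88 to 1.55). Rpl10l, a retrogene of Rpl10 that serves male meiosis in the mouse, had 1, 4 and 0 counts in femur, 0 in all frontal libraries, and 1 and 0 in parietal bone, so nothing can be said of its difference between bones.

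Each paralog was then set against its parent within a library, which removes any shift that scales both. The test of the log2 ratio in calvaria (n = 5) against femur (n = 3) was an exact permutation test, two-sided, over all 56 splits. Its smallest possible p is 0.0179, and p was adjusted over 7 pairs. Rpl22l1 stood at 86.0, 82.9 and 68.4% of the Rpl22 level in femur libraries 1, 2 and 4. In frontal bone it stood at 38.9, 39.9 and 43.1%, and in parietal bone at 42.2 and 45.6%. All 5 calvarial libraries lay below all femur libraries, and the means were 79.1 ± 9.41% (SD, n = 3) and 41.9 ± 2.69% (SD, n = 5), a log2 difference of -0.91 (exact permutation p = 0.0179, adjusted 0.0417). The parent itself stood at 1.27 for calvaria against femur and the paralog at 0.37, on the log2 scale. None of the 3 ratios that passed did so in any fit without a library, where adjusted p was 0.0667 or more; with 7 libraries fewer splits are possible, which limits how small p can be.

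Rpl36al, a paralog of Rpl36a, had 209, 204 and 172% of the level of its parent in femur, 101, 95.6 and 112% in frontal and 95.2 and 94.4% in parietal bone. The calvarial libraries again lay below the femur ones, with a log2 difference of -0.96 (exact permutation p = 0.0179, adjusted 0.0417). Rpl7l1, a paralog of Rpl7 that acts in ribosome assembly, had 32.3 to 38.5% of the Rpl7 level in femur and 19.1 to 24.5% in calvaria (-0.69, exact permutation p = 0.0179, adjusted 0.0417). Its transcript of 2606 bases is longer than the 1163 bases of Rpl7, and with the length trend removed both genes stood at -0.22 for calvaria against femur. For Rpl22l1 and Rpl22 those values were -0.95 and 0.98, and for Rpl36al and Rpl36a -0.11 and 0.38.

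Rpl39l had 3.61 to 7.34% of the Rpl39 level in femur and 0.672 to 3.69% in calvaria, where parietal library 4 stood just above femur library 4. In the tested log2 ratio of CPM + 0.5 all calvarial libraries lay below all femur libraries (-1.49, exact permutation p = 0.0536, adjusted 0.075). Rps27l, a paralog of Rps27 that p53 induces, had 46.3 to 52.2% of its parent in femur and 46.5 to 57.7% in calvaria (0.07, exact permutation p = 0.482, adjusted 0.562). Rpl3l had 0.181 to 0.435% of the Rpl3 level in femur and 0.283 to 0.513% in calvaria (0.07, exact permutation p = 0.786). For both the libraries overlapped.

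**Figure D5:**
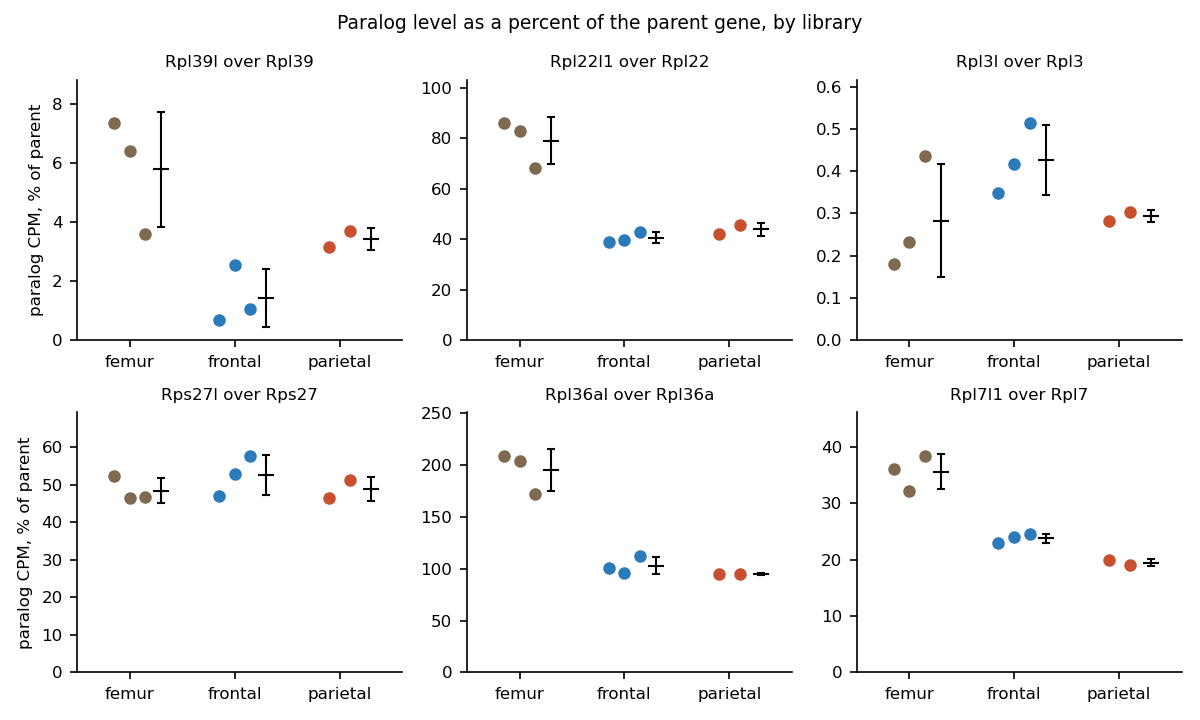
Level of 6 paralogs as a percent of the level of their parent gene (y axis, from 0) in each library by bone, with the mean ± SD beside the points (n = 3, 3 and 2). Rpl22l1, Rpl36al and Rpl7l1 lie lower in every calvarial library than in every femur library, Rps27l lies between 46.3 and 57.7% throughout.

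Translation factors, ribosome assembly genes and growth regulators had medians below 0 in calvaria against femur, where the members' median was 0.70. Of the proteins made as fusions or bound to the ribosome, Rack1, a scaffold on the small subunit, was higher in calvaria (0.60 ± 0.11), as was Fau, a ubiquitin-like fusion of Rps30 (0.63 ± 0.11). Of 48 translation factors 14 were higher and 18 lower in calvaria (median -0.15); the shares over all tested genes were 29.6% higher and 31.4% lower, here and for the lists that follow. Eif1, which selects the start codon, was at 1566 to 1777 CPM in femur and 677 to 928 CPM in calvaria (-1.11 ± 0.12), and the initiation factor subunit Eif3b at 288 to 317 and 98.0 to 133 CPM (-1.38 ± 0.10). The release factor Gspt1 was lower (-1.01) and the small subunit Eif3k higher (1.05). Within these lists, too, transcript length was not held constant.

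Of 73 ribosome assembly genes 10 were higher and 47 lower in calvaria (median -0.48). Polr1a, the largest subunit of RNA polymerase I, was at 38.9 to 42.2 CPM in femur and 11 to 18.0 CPM in calvaria (-1.59 ± 0.15). The rRNA methyltransferase Nop2 (-1.42) and the helicase Ddx21 (-1.21) were also lower, while Nop10, a small protein of the pseudouridylation complex, was higher (1.17). Of 22 tested growth regulators of the mTOR and Myc pathways 2 were higher and 15 lower (median -0.55). Myc was at 227 to 262 CPM in femur and 63.8 to 96.7 CPM in calvaria (-1.63 ± 0.12), and Larp1, which binds TOP mRNAs, at 126 to 139 and 32.1 to 62.7 CPM (-1.63 ± 0.14). Mdm2 (-1.60) and the mTORC1 inhibitor Sesn2 (-2.37) were lower too. For each of these 4 regulators, no calvarial library reached the lowest femur library.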

How the data were processed

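The authors deposited raw counts per gene, whole numbers with 92 spike-in rows that entered neither library sizes nor tests. Per the submitters' processing notes, STAR 2.5.2a, edgeR, limma and DESeq2 were used, with GRCm38.p3 and mm10 as builds. Neither the tool that counted the reads nor its strand setting is given in the sources used here, so overlapping genes and near-identical copies of ribosomal protein genes have uncertain counts. Genes without a symbol held 0.114 to 0.151% of counts. Positions and lengths are from GENCODE M21.

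The test was that of edgeR 4.0.16 under R 4.3.3 (filterByExpr, TMM, robust quasi-likelihood fit over 8 libraries with the 3 bones as groups, 5 residual degrees of freedom). The fit recovered known changes in simulated data. Those data held few changed genes, balanced in direction, and no shift of short transcripts, so they cannot decide how the fit handles one. Standard errors come from each fold change and the F value of its test. Paralog ratios were log2 ratios of CPM + 0.5. CPM here was computed from the deposited counts on the TMM scale. Library sizes of 6259229 to 13461622 counts set the precision: values that rest on few counts, such as Rpl3l, Rpl24 and Rpl39l, are the least certain. Replicate libraries all differed by more than sampling noise, with 7.67 to 36.4 as chi-square per degree of freedom.

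The members, gene lists and tests were chosen with earlier results of these data known. Named genes were the paralogs and their parents, the 6 members with the largest and the 6 with the smallest log2 fold change in calvaria against femur, the 6 with the smallest p between frontal and parietal bone, the 4 with the highest and the 4 with the lowest level per length, 13 members with known roles, the 6 departing most from the module each way, and the 4 genes with the smallest p of each other list; a few of these are not reported here. Alternatives were DESeq2 1.42.0, limma 3.58.1 voom, library size only, no filter, only the groups compared in the fit, a replicate block, a trend on length and GC content, a spike-in scale, erythroid genes out of the scale, another pseudocount and each library left out. The trend on the principal transcript was chosen after seeing the data.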

Additional observations from a re-analysis of the deposited data

Results flagged for a closer look

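For 3 members the frontal and parietal bones lay on opposite sides of femur and differed from each other by edgeR's quasi-likelihood test. Rpl39l had a log2 fold change of -1.94 for frontal against parietal bone, with -1.22 against femur in frontal and 0.72 in parietal bone. The parietal value was not called (± 0.41, adjusted p = 0.157, edgeR). Rpl10 had -0.46 (adjusted p = 0.0457, edgeR), with 303 to 317 CPM in frontal, 309 to 346 CPM in femur and 422 and 429 CPM in parietal bone. Rpl18, a large subunit protein outside the rule for named genes and picked after its values were seen, had -0.47 (adjusted p = 0.0411, edgeR), with 198 to 215 CPM in frontal, 206 to 216 CPM in femur and 281 and 292 CPM in parietal bone. Against femur alone, neither Rpl10 (-0.08) nor Rpl18 (-0.03) was called in frontal bone. Each of these 3 frontal against parietal calls was lost in 5 of 8 fits without a library.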

How the results depend on the processing

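For calvaria against femur, 31 of the 34 named members that were called stayed called without each of the 8 libraries in turn; Rpl22l1, Rpl3l and Rplp2 did not. DESeq2, limma-voom, library size only, erythroid genes left out of the scale and the replicate block were also tried in that comparison. Each kept the direction of the named members that were called and changed at most 2 calls. Over all comparisons the replicate block lost 12 calls of named genes. With library size only, Rpl10 (0.05) and Rpl18 (0.10) changed sign in frontal bone against femur, called in neither fit. The settings that changed more of the calvarial calls or directions were transcript length with GC content and the spike-in scale. The cause was not tested. Correlations of same-numbered libraries, on values centred within each bone, ran from -0.112 to 0.146. With 2 or 3 libraries a bone they cannot decide whether a shared number marks a shared animal, which the labels do not state. A replicate block left 72, 53 and 75 members higher in calvaria, frontal and parietal bone against femur (27.8, 25.4 and 24.0% of all genes). It left 0 lower in frontal against parietal bone, in a fit that called 0% of all genes there. Below the module were 7 members (50.5% of all genes). With no filter on low counts 39 members were lower in frontal against parietal bone (2.28% of all genes). With library size only 0 were lower in frontal bone against femur (24.7% of all genes). The median gene stood at 0.11 with library size only and at 0.01 in the main fit, for calvaria against femur.

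Without each library in turn, members called higher ran from 71 to 74 in calvaria against femur, 46 to 59 in frontal against femur and 71 to 76 in parietal against femur, with 0 to 1 lower in frontal against femur. Members lower in frontal than parietal bone ran from 0 to 63, where 0 to 6.79% of all genes were lower. Members above the module ran from 11 to 17 and below it from 7 to 12. With all 8 libraries, 11% of all genes were above it and 52.2% below. The log2 ratios to the parent ran from -1.01 to -0.84 for Rpl22l1, -1.05 to -0.91 for Rpl36al, -0.76 to -0.63 for Rpl7l1, -1.77 to -1.20 for Rpl39l, -0.09 to 0.29 for Rpl3l, 0.03 to 0.13 for Rps27l and -0.64 to -0.28 for Rpl10l. The share of counts ran from 1.58 to 1.66% in femur, 2.31 to 2.33% in frontal, 3.06 to 3.24% in parietal bone and 2.5 to 2.74% in calvaria. With erythroid and granulocyte genes left out of the total the shares were 1.72, 2.83, 3.78 and 3.21%, and with copies counted the frontal share was 2.40%.

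With a trend on the length and GC content of the union of exons removed, 7 members were lower in calvaria (30.1% of all genes). In frontal bone 22 were higher (27.1%) and 12 were lower (28.5%), and 1 was lower in parietal bone against femur (26.1% of all genes). Between frontal and parietal bone 17 were lower in frontal bone (0.348% of all genes), and 17 were below the module (42.2%). Rpl22l1 (-0.32, in frontal bone -0.50 and in parietal bone -0.14), Rps27l (-0.44), Rpl36al (-0.13), Rpl10 (-0.39, in parietal bone -0.26) and Rps3a1 (-0.16) then lay below 0. With the trend on the principal transcript, 26 were higher and 14 lower in calvaria, 8 and 26 in frontal bone (median -0.12), 38 and 5 in parietal bone, 0 were lower in frontal than parietal bone and 19 below the module. Named members that changed sign to below 0 were Rpl22l1 (-0.95, also in each bone), Rps27l (-0.54), Rpl36al (-0.11), Rps27 (-0.41), Rpl7 (-0.22), Rpl10 (-0.71, in parietal bone -0.62), Rpl34 (-0.08), Rps3a1 (-0.16), Rpl11 (-0.08) and Rps6 (-0.23). Rpl39l (-1.39), Rpl24 (-1.13), Rpl7a (-0.70), Rplp0 (-0.43) and Rps2 (-0.37) gained a call as lower.

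On the spike-in scale, where spike-ins took 0.0286 to 0.176% of counts, 0 members were called higher in any comparison. In frontal bone 0 were called lower, against femur or against parietal bone. That fit called 0.226% of all genes higher in calvaria, 0.2% in frontal and 0.103% in parietal bone against femur. It called 7.25% lower in frontal bone against femur, and 0% either way in frontal against parietal bone. The median gene stood at -0.83 and the median member at -0.16 for calvaria against femur, at -0.11 for frontal and -0.19 for parietal bone against femur and at 0.07 for frontal against parietal bone. Relative to the median gene these medians were 0.67, 0.41, 0.94 and -0.51. Against the median gene of -0.83, the values on this scale were -0.50 for Rpl22l1 (in parietal bone -0.46), -0.21 for Rps27l, -0.39 for Rpl36al, -0.02 for Rpl3, -0.31 for Rps27, -0.25 for Rpl7, -0.28 for Rpl34, -0.45 for Rps14, -0.20 for Rps3a1, -0.19 for Rpl36, -0.06 for Rpl38, -0.27 for Rpl13, -0.15 for Rps19, -0.14 for Rpl5, -0.26 for Rpl11, -0.27 for Rps6, -0.23 for Rpl13a, -0.08 for Rpl26, -0.14 for Rplp1, -0.43 for Rplp2, -0.09 for Rpsa, -0.27 for Fau and -0.23 for Rack1. In parietal bone against femur Rpl18 stood at -0.73 and Rpl10 at -0.80, and in frontal against parietal bone at 0.13 and 0.16.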

Other observations

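Some copies of ribosomal protein genes that are annotated as pseudogenes or carry other names had counts of their own. Reads could not be told apart from those of the parents where the sequences are near-identical, so these values are uncertain. Rps4l, a copy in the Rps4x family, had 34.2 CPM in femur, 12.3 CPM in frontal and 17.7 CPM in parietal bone on average, with a log2 fold change of -1.21 for calvaria against femur (adjusted p = 8.82e-05, edgeR). Rps4x itself stood at 1.07 in that comparison. The copies Rps3a2 (0.53), Rps3a3 (0.58), Rpl37rt (0.45) and Rpl6l (0.48) were higher in calvaria, and Rps27rt (0.21) was not called. The copies named for a member took 0.0608% of gene counts in femur, 0.0855% in frontal and 0.118% in parietal bone.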
